A study of Mus musculus with 8 samples.

Results

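The RNA counted under barcodes with too few transcripts to be taken as a nucleus was compared between 2 genotypes of mouse optic nerve (ON). Whether each of these barcodes stands for a droplet was not tested. The measurements are single-nucleus RNA counts in unique molecular identifiers (UMIs), where each UMI stands for 1 captured transcript. In each library the UMIs of all barcodes with fewer than 100 UMIs were summed per gene, while barcodes with at least 500 UMIs were taken as the range of nuclei. This low-UMI pool held 6305384 of the 6950790 barcodes with at least 1 UMI in the 8 libraries (90.7%), but only 2.21% of all UMIs.

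The 8 libraries came from female mice at 120 days of age (P120) on a C57BL/6J background, and each pooled 6 ONs of 3 mice. All mice carried the floxed *Piezo2* allele of the strain B6(SJL)-Piezo2tm2.2Apat/J. The 4 control libraries (replicates 1 to 4) were labelled Piezo2f/f, and the other 4 (replicates 10 to 13) Olig2-cre;Piezo2f/f cKO. In the second group Cre was knocked into the single exon of *Olig2* (line B6.129-Olig2tm1.1(cre)Wdr/J), so that these mice were heterozygous for *Olig2* and Cre was active in the *Olig2* lineage, which includes oligodendrocytes (OLs). *Piezo2* encodes a mechanosensitive ion channel. The nerves were embedded and snap-frozen, and no perfusion step is described for them.

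RNA outside nuclei is known to mix the cytoplasm of all cells that were broken open, including cells that give few or no nuclei. Red blood cells of mammals lose their nucleus but keep globin mRNA for a time, so that blood left in a tissue can contribute RNA without contributing nuclei. The pituitary gland lies close behind the optic chiasm, and its endocrine cells hold large amounts of hormone mRNA. Both sources have characteristic genes, and these genes can be followed in each library.

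A library held 39628926 to 56541132 UMIs, of which 882575 to 1293855 lay in the low-UMI pool (1.81% to 2.99%). The low-UMI barcodes had a median of 1 UMI, and barcodes with 1 to 9 UMIs gave 89.6% to 97.6% of the pool. Barcodes with at least 100 and fewer than 500 UMIs, called intermediate here, held 46.7% to 60.2% of a library's UMIs. Barcodes with at least 500 UMIs, the range of nuclei, held 37.6% to 51.5%. Control replicate 4 and cKO replicate 13 had medians of 601 and 596 UMIs in that range, against 1331 to 2533 in the other libraries. Library pairs shared 5 to 69 barcodes in the range of nuclei, and 696 of 76693 such barcodes (0.908%) occurred in more than 1 library. Between low-UMI pools, 17.1% to 22.8% of the smaller set of barcodes recurred in the other library. No pair of libraries of the same group agreed within sampling noise, as the lowest chi-square per degree of freedom over genes was 1.78. Of the Y-linked genes, 1 UMI was found in the low-UMI pool of cKO replicate 11 and 0 in the other 7 pools.

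**Figure D1:**
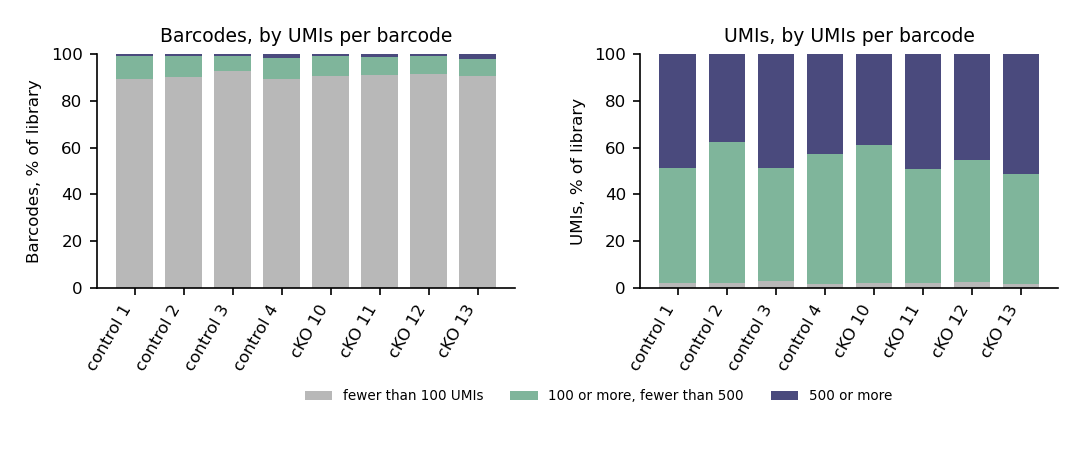
The bars give, for each library, the percentage of barcodes with at least 1 UMI (left) and of UMIs (right) in barcodes with fewer than 100 UMIs, with 100 or more but fewer than 500, and with 500 or more. Low-UMI barcodes make up most barcodes of every library but 1.81% to 2.99% of its UMIs.

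The name "extranuclear" held only in part for the low-UMI pool. Nuclear-retained long RNAs (*Malat1*, *Neat1*, *Meg3*, *Xist* and *Kcnq1ot1*) summed to 37364 to 51553 counts per 1000000 UMIs of the pool (CPM) in the 8 libraries. This was above the 15577 to 32369 CPM of the intermediate barcodes and below the 67194 to 81069 CPM of the nucleus-range barcodes. Messenger RNAs of mitochondria, which lie outside the nucleus, ran the other way, with 20507 to 34450 CPM in the low-UMI pool, 27346 to 43132 in the intermediate and 7500 to 14386 in the nucleus-range barcodes. Nucleus-range barcodes with fewer than 1000 UMIs held 19711 to 40527 CPM of the nuclear-retained RNAs and 25117 to 39164.5 CPM of the mitochondrial mRNAs. Those with at least 1000 UMIs held 72104 to 87990 and 6387 to 9915 CPM. By both lists the shallower barcodes lay closer to the intermediate than to the deeper ones, so nucleus-range values come from a mixture. Of 11456 genes tested in all 3 pools, 8755 (76.4%) had a mean low-UMI level between those of the other pools. The pool is therefore called by its rule in what follows.

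The amount of low-UMI RNA did not differ between the genotypes beyond the spread of the libraries. The pool held 2.31%, 2.19%, 2.99% and 1.81% of the UMIs of control replicates 1 to 4, and 2.33%, 2.04%, 2.40% and 1.84% in cKO replicates 10 to 13. The groups overlapped, with means of 2.32% ± 0.490 and 2.15% ± 0.256 (SD, n = 4 each; exact permutation test, two-sided, p = 0.629, adjusted p = 0.771). The mitochondrial share of the pool was 2.57% ± 0.383 in the control libraries and 2.68% ± 0.597 in those labelled cKO (exact permutation p = 0.771, adjusted p = 0.771). The adjustment covers these 2 values, and the smallest p that 4 against 4 libraries allow is 0.0286.

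*Piezo2*, the targeted gene, was not called in either direction. Control replicates 1 to 4 held 179, 96.7, 124 and 163 CPM of it, and cKO replicates 10 to 13 held 116, 189, 148 and 181 CPM. The groups overlapped, and the log2 fold change was 0.18 (SE 0.18, edgeR adjusted p = 0.998). The counts cover the whole gene, so UMIs from outside the floxed exons are included and the value says little about recombination. Because this check does not separate the groups, the second group is called the libraries labelled cKO. *Piezo1*, the related channel, had 1 to 12 UMIs in a library and was too low to be tested. *Olig2*, the transcription factor whose locus carries Cre, was at 44.9 ± 10.5 CPM in the control libraries and 59.6 ± 5.22 in those labelled cKO. The groups overlapped for it (log2 0.38, adjusted p = 0.998). In the nucleus-range barcodes *Olig2* was at 28.3 ± 5.48 and 42.6 ± 6.38 CPM (log2 0.60, edgeR adjusted p = 0.995). It was not called there, but its groups did not overlap, where 1.22% of all genes tested were higher without overlap. *Olig1*, its neighbour and a factor of the same lineage, lay at 153 to 213 CPM in the control libraries and at 247 to 295 CPM in the others. These groups did not overlap, but the log2 fold change of 0.52 (SE 0.15) did not pass the test (adjusted p = 0.903).

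Of the 11463 genes with enough UMIs to be tested, 7 were called, which took a log2 fold change beyond 0.5 in either direction and an adjusted p below 0.05 in edgeR. *Gm33255* was the 1 gene called higher in the libraries labelled cKO (0.00872% of the genes tested), and *Hba-a1*, *Hba-a2*, *Hbb-bs*, *Hbb-bt*, *Gh* and *Prl* were the 6 called lower (0.0523%). At an unadjusted p under 0.05 there were 442 genes. All 8 libraries separated by genotype for 123 genes that were higher (1.07%) and 125 that were lower (1.09%) in the libraries labelled cKO. With no difference, 4 against 4 libraries separate in either direction with a probability of 0.0286 (exact permutation). Separation alone is therefore weak evidence for a gene. The median log2 fold change over all genes tested was -0.0059.

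**Figure D2:**
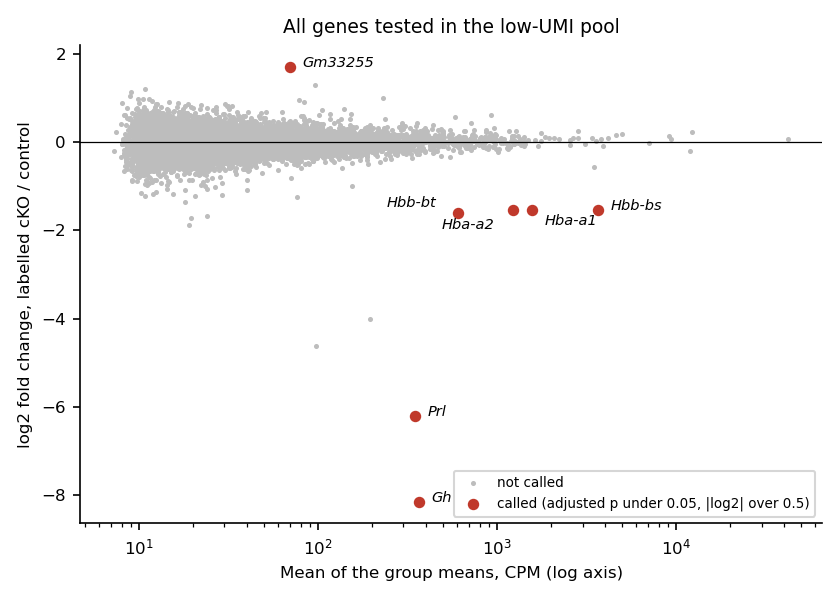
Each point is 1 of the 11463 genes tested in the low-UMI pool, with the mean of the 2 group means in CPM on a log axis and the fitted log2 fold change (libraries labelled cKO over control). The 7 called genes are named, and the 4 globin genes lie together between log2 -1.61 and -1.54 at the highest levels of the called genes.

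The adult hemoglobin genes were lower in every library labelled cKO. *Hba-a1* and *Hba-a2* encode the alpha chains and *Hbb-bs* and *Hbb-bt* the beta chains of hemoglobin, the oxygen carrier of red blood cells. *Hba-a1* (chromosome 11, 32233186 to 32234504, GRCm39) had levels of 2112, 2667, 2071 and 2456 CPM in control replicates 1 to 4. In cKO replicates 10 to 13 they were 757, 625, 823 and 1006 CPM. The lowest control library thus lay above the highest library of the other group. The fitted log2 fold change was -1.54 (SE 0.18, adjusted p = 0.000123), and the control mean was 2.90 times the other.

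*Hba-a2* (chromosome 11, 32246168 to 32247320) followed at 1612, 1980, 1646 and 2036 CPM in the control libraries and 552, 496, 626 and 815 CPM in those labelled cKO (log2 -1.55, SE 0.18, adjusted p = 0.000123). *Hbb-bs* (chromosome 7, 103475730 to 103482989), the most abundant of the 4, gave 5156, 6306, 4184 and 6138 CPM against 1738, 1491, 1574 and 2648 CPM (log2 -1.55, SE 0.20, adjusted p = 0.00046). Neither gene had overlapping groups. *Hbb-bt* (chromosome 7, 103461727 to 103465047) gave 875, 1064, 678 and 1004 CPM against 264, 249, 244 and 429 CPM (log2 -1.61, SE 0.19, adjusted p = 0.000164). Within each group the same libraries stood out for the beta chains, with control replicate 3 the lowest of its group and cKO replicate 13 the highest.

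**Figure D3:**
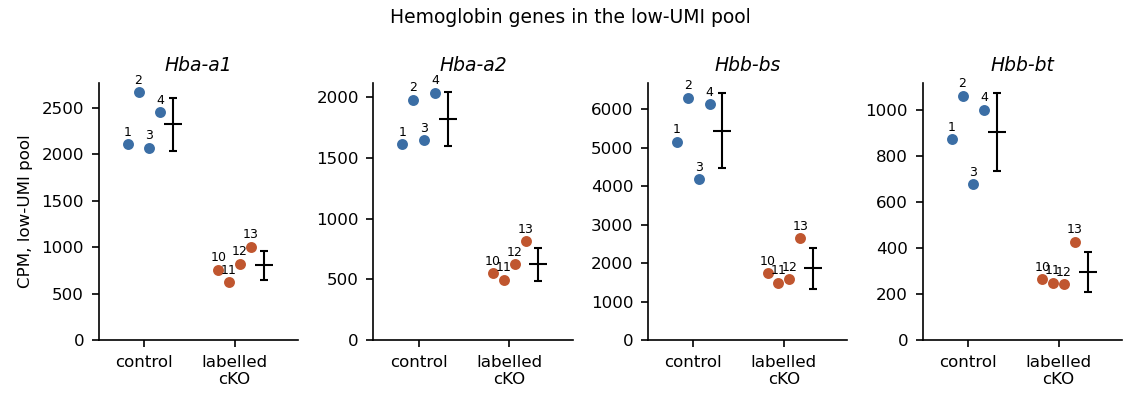
Points give the CPM of 4 hemoglobin genes in the low-UMI pool of each library, numbered by replicate, and the bars beside them the mean ± SD of 4 libraries. In each panel the 4 control libraries lie above the 4 libraries labelled cKO.

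Summed over the list of hemoglobin genes, a control library held 8581 to 12017 CPM and a library labelled cKO 2861 to 4899 CPM, which were 0.858% to 1.20% and 0.286% to 0.490% of the pool. The means were 10497 ± 1615 and 3585 ± 899 CPM (SD, n = 4 each), a ratio of 2.93, or 3.11 without control replicate 3. Of the 10 genes of the list, 4 were tested and all 4 were called lower, while *Hbq1a* had 1 UMI in each of 2 libraries and the other 5 had none in the pool. The ratio of beta to alpha chain UMIs was 1.31 to 1.62 in the control libraries and 1.25 to 1.69 in those labelled cKO. The ratio of *Hbb-bs* to *Hbb-bt* was 5.89 to 6.17 and 5.99 to 6.58. Both ratios overlapped between the groups, while the sums did not. The globin UMIs were spread over many barcodes: 1.20% to 1.56% of the low-UMI barcodes of a control library held at least 1, against 0.378% to 0.619% in a library labelled cKO, and the most in 1 barcode was 13.

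The difference was present at each depth within the pool. In barcodes with 1 to 9 UMIs the hemoglobin list stood at 8578 to 11805 CPM in the control libraries and at 2890 to 4869 CPM in those labelled cKO. In barcodes with 10 to 49 UMIs, which gave 1.06% to 2.66% of the pool, the ranges were 5880 to 14021 and 1169 to 4211 CPM. In barcodes with 50 to 99 UMIs they were 11024 to 17796 and 4174 to 8303 CPM. The groups overlapped in none of these 3 bands. Within each of the 8 fits that left out 1 library, the 4 globin genes stayed called, and so did *Gm33255*.

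The 2 genes of each pair are near-copies in their coding sequences, so reads could be shared between them. The coding sequences of *Hba-a1* and *Hba-a2* were identical at 428 of 429 bases, and those of *Hbb-bs* and *Hbb-bt* at 443 of 444 (GENCODE, GRCm39). Over the whole transcripts, 87.5% of aligned positions were identical for the alpha pair and 86.8% for the beta pair. The split between 2 such genes is uncertain where reads fall in shared sequence, and how reads matching both genes were treated is not given in the sources used here. The promoters were less alike than the coding sequences. Over the 250 bases before the start site, 97.6% of aligned positions were identical for the alpha pair and 70.5% for the beta pair. Promoter sequences are shown because all 4 genes were called lower. They come from RefSeq on GRCm38.p6, whose coordinates differ from those above. Capitals mark matches on either strand to 3 short motifs known from globin promoters. These are the CACCC box, the CCAAT box and GATAA, the core of GATA factor sites.
Hba-a1, chr11:32283422-32283671, plus strand: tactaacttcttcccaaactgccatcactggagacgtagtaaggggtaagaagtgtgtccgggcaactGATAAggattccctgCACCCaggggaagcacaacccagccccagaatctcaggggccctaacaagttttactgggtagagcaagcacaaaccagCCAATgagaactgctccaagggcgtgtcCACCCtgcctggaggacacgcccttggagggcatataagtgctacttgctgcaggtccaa
Hbb-bs, chr7:103827929-103828178, minus strand: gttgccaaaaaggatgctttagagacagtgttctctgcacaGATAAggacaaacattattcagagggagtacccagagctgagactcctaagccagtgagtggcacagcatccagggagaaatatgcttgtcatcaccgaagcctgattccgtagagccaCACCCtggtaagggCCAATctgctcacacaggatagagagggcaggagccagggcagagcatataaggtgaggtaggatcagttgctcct
Hbb-bt, chr7:103813924-103814173, minus strand: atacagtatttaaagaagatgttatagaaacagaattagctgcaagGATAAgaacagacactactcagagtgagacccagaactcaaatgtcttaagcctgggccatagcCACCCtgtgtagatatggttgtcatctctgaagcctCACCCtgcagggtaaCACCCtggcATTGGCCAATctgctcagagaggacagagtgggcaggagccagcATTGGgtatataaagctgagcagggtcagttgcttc
No matches overlapped. Each of these promoters, and that of *Hba-a2*, held all 3 motifs. Of 32851 promoters of the same length, 52.0% held the CACCC box, 33.8% held the CCAAT box and 22.6% held GATAA, so each motif alone is common.

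Other genes of red blood cells were at lower levels than the 4 called globin genes. *Alas2*, the enzyme that starts heme synthesis in erythroid cells, had 29 to 37 UMIs in a control library and 18 to 22 in a library labelled cKO. Its levels were 32.8 ± 6.42 and 18.3 ± 2.10 CPM with no overlap, but the log2 fold change of -0.83 (SE 0.22) did not pass the test (adjusted p = 0.570). *Slc4a1*, the anion exchanger of the red cell membrane, had 0 to 2 UMIs in a library. *Bpgm*, which shifts the oxygen affinity of hemoglobin, and *Fech*, the last enzyme of heme synthesis, are also used by other cells. They had mean levels of 169 against 171 CPM and 63.6 against 63.8 CPM. Of the 14 other erythroid genes in the files, 6 were tested and edgeR called 0, with a median log2 fold change of -0.24. In barcodes with at least 100 and fewer than 500 UMIs, 10 could be tested and edgeR again called 0, while 8 were fitted below 0 (median log2 -0.64) and 7 of them had groups that did not overlap. Over all genes tested there, 1.59% did not overlap and were lower, and 2.28% did not overlap and were higher. In these barcodes *Slc4a1* was at 1.42 ± 0.348 and 0.408 ± 0.0772 CPM (log2 -1.77, adjusted p = 0.128) and *Alas2* at 23.5 ± 8.08 and 10.5 ± 3.60 CPM (log2 -1.16, adjusted p = 0.370).

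No gene of white blood cells or platelets was called. The 10 neutrophil genes summed to 24.1 to 129 CPM in the control libraries and to 25.6 to 52.4 CPM in the others, so the groups overlapped, and the 2 tested had a median log2 fold change of -0.53. *S100a9*, a calcium-binding protein of neutrophils, was at 18.3 ± 14.7 and 10.6 ± 3.03 CPM, and its highest value, 39.4 CPM, came from control replicate 3. Platelet genes (1 of 11 tested, *Itga2b*) and lymphocyte genes (1 of 9 tested, *Ighm*) had log2 fold changes of 0.12 and -0.25. These 3 genes and *Csf3r*, a neutrophil growth factor receptor, had an adjusted p of 0.998 in edgeR, and 8 to 14 UMIs of *Ighm* in a library show how little their counts could resolve. Whether residual blood sets the hemoglobin difference was not tested.

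Both of the most abundant pituitary hormone genes were also lower in the libraries labelled cKO, but here 1 control library held most of the RNA. *Gh* (chromosome 11, 106191095 to 106192691) encodes growth hormone and *Prl* (chromosome 13, 27241553 to 27249188) prolactin. *Gh* had 33, 124, 3521 and 43 UMIs in control replicates 1 to 4 and 1, 9, 0 and 1 in cKO replicates 10 to 13. In CPM these were 36.1, 120, 2721 and 48.7 against 0.986, 7.79, 0 and 0.992, and the 0 allows up to 2.76 CPM (3 UMIs, counting error only). The groups did not overlap, and the fitted log2 fold change was -8.14 (SE 1.37, adjusted p = 0.0143). *Prl* had 45, 210, 3151 and 53 UMIs against 6, 29, 0 and 6, again without overlap (log2 -6.21, SE 1.08, adjusted p = 0.0191).

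Without control replicate 3 both genes were still called, at log2 -4.68 for *Gh* (adjusted p = 6.18e-06) and -3.45 for *Prl* (adjusted p = 0.000297), so that library held much of the difference but did not decide the calls in this pool. With any 1 of the 4 libraries labelled cKO left out, neither gene was called, and the adjusted p was 0.0750 to 0.125 for *Gh* and 0.0776 to 0.153 for *Prl*. The log2 fold changes in these fits were -9.94 to -7.72 for *Gh* and -7.46 to -5.78 for *Prl*. DESeq2, run as a second tool, gave no adjusted p for either gene. In the intermediate barcodes the groups did not overlap for either gene, but neither was called, at log2 -7.69 for *Gh* (adjusted p = 0.347) and -6.40 for *Prl* (adjusted p = 0.454). Without control replicate 3 the values there were -4.91 (adjusted p = 0.180) and -3.67 (adjusted p = 0.584).

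*Pomc* (chromosome 12, 4004944 to 4010642), the precursor of ACTH and other peptides, had 15, 91, 809 and 16 UMIs in the control libraries and 6, 15, 7 and 6 in those labelled cKO. In CPM the groups did not overlap, with 16.4 as the lowest control value and 13.0 as the highest of the others, but the adjusted p of 0.0754 missed the threshold (log2 -4.62, SE 0.92). With any 1 control library left out *Pomc* was called (adjusted p = 0.00524 to 0.0356), at log2 -2.38 without control replicate 3. With any 1 library labelled cKO left out it was not called (adjusted p = 0.224 to 0.464). *Cga*, the alpha subunit shared by several pituitary hormones, had 149 UMIs in control replicate 3 and 0 to 6 in every other library. *Tshb*, the beta subunit of thyrotropin, had 36 UMIs in that library and 3 to 14 in the others, *Lhb* had 1 UMI under each of its 2 identifiers, and *Fshb* had none. Of the 7 hormone genes, 3 were tested and 2 called lower.

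**Figure D4:**
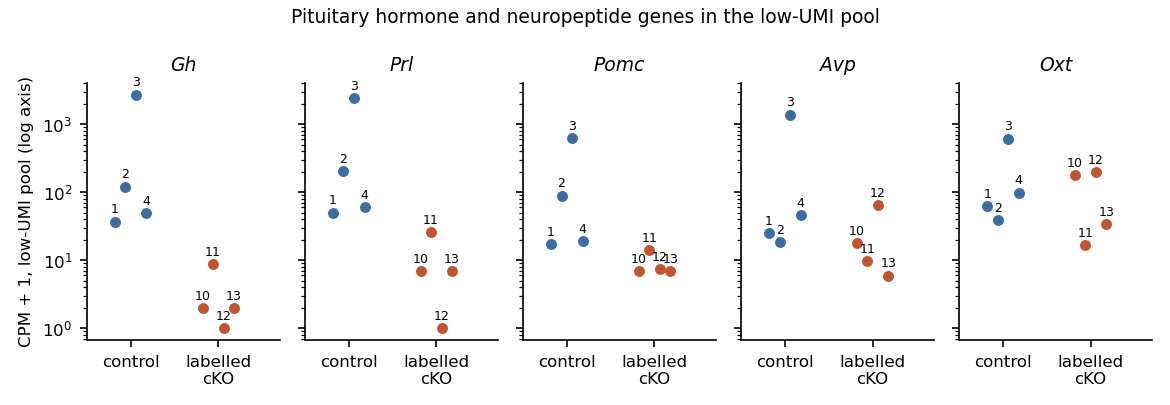
Points give CPM + 1 on a log axis for 3 pituitary hormone genes and 2 neuropeptide genes in the low-UMI pool of each library, numbered by replicate. Control replicate 3 is the highest library in every panel, and the groups overlap for *Avp* and *Oxt* but not for *Gh*, *Prl* and *Pomc*.

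The promoter of *Prl* is shown because the gene was called lower. Capitals mark matches on either strand to ATGNATA, letters known from binding sites of the pituitary factor *Pou1f1*, and to the CCAAT box.
Prl, chr13:27057320-27057569, plus strand: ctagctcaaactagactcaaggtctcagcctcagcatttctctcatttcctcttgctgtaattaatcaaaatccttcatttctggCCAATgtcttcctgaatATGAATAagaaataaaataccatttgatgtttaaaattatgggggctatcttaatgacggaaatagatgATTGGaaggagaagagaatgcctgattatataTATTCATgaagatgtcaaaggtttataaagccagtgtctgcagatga
ATGNATA matched 2 times in it. The motif was chosen for this gene, so the match is a description with no test. Of the 32851 promoters, 7.92% held at least 1 match and 1.26% at least 2. *Pou1f1* itself, which drives *Gh* and *Prl* in the pituitary, had 12 UMIs in control replicate 3 and 0 in the other 7 low-UMI pools.

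Control replicate 3 held 7667 of the 8451 hormone UMIs of the 8 low-UMI pools (90.7%). The other control libraries held 97, 441 and 122, and the libraries labelled cKO 29, 61, 15 and 19. Every control library thus lay above every library labelled cKO, with sums of 106 to 5926 CPM against 13.8 to 52.8 CPM. The ratio of the group means was 57.9, and 7.84 without control replicate 3. The hormone UMIs were scattered, as 7593 barcodes held the 7667 UMIs of control replicate 3. In the nucleus-range barcodes, 21 of control replicate 3 and 3 of control replicate 2 had at least 10% of their UMIs in hormone genes, and 0 in the other 6 libraries. Whether pieces of pituitary in the dissected tissue set these levels was not tested.

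Among the 11463 genes tested, control replicate 3 was the only library with genes at 4 or more times the level of the next highest library (at least 5 CPM). There were 7 of them: *Gh*, *Prl*, *Pomc*, *Avp*, *Nrg1*, *Ccl19* and *Chgb*. Of the genes too low to be tested, 21 stood out in this way in control replicate 3, among them *Cga*, *Pou1f1* and the prohormone convertase *Pcsk1*, 3 in cKO replicate 10 (*Sst*, *Gm45904* and *Lhx8*), 1 in cKO replicate 11 (*Mki67*) and 0 in the other 5 libraries. *Avp*, which encodes vasopressin, was at 1376 CPM there and at 4.96 to 64.3 CPM elsewhere. *Oxt*, which encodes oxytocin, was at 614 CPM there and at 15.6 to 197 CPM elsewhere. Both peptides are made by hypothalamic neurons that release them in the posterior pituitary. With *Rax*, a factor of the posterior lobe, they made a list of 3 genes, of which edgeR called 0. With no filter on low counts it called *Avp* and *Oxt* lower. The adjusted p of *Avp* was then 2.35e-83 although its groups overlapped, so calls of that fit are not taken as support. With the hemoglobin level as a covariate edgeR called *Avp* lower, at log2 -18.4 (adjusted p = 0.00477). The hemoglobin level did not overlap between the groups, so that fit cannot separate it from genotype. The groups overlapped for both peptides (adjusted p = 0.570 and 0.998), and the log2 fold change of *Avp*, -4.00, became -0.24 without control replicate 3. *Chgb*, a protein of secretory granules, was at 92.0 CPM against 10.4 to 21.5, *Nrg1*, a growth factor, at 162 against 8.70 to 37.5, and *Ccl19*, a chemokine, at 68.0 against 3.87 to 15.9. Of the 10 secretory granule genes, 6 were tested and 0 were called (median log2 -0.25), while with no filter on low counts *Chgb* was. The pituitary transcription factors and receptors were near 0, with 8 of 12 seen and 0 tested. They summed to 2.19 to 21.6 CPM in the control libraries, the highest in replicate 3, and to 0.919 to 3.94 CPM in the others.

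*Gm33255*, a long noncoding RNA, was the only gene called higher in the libraries labelled cKO. It lies on chromosome 16 (88164790 to 88178584, minus strand), 2.85 Mb from *Olig2*, the locus that carries Cre. It had 38, 35, 37 and 24 UMIs in control replicates 1 to 4 and 148, 109, 116 and 77 in cKO replicates 10 to 13. In CPM these were 41.6, 33.8, 28.6 and 27.2 against 146, 94.3, 107 and 76.4, so the groups did not overlap (log2 1.69, SE 0.20, adjusted p = 0.000164). In the intermediate barcodes it was at 7.58 ± 1.62 and 15.5 ± 3.26 CPM, again without overlap, but was not called (log2 1.04, adjusted p = 0.234). *4930420G21Rik*, a noncoding RNA on the plus strand, overlaps it at 88173497 to 88272191. It was at 54.0 ± 12.7 and 103 ± 23.1 CPM, with overlapping groups and a log2 fold change of 0.94 (adjusted p = 0.0754). It was called higher by DESeq2, and by edgeR without control replicate 1, without cKO replicate 10 or with no filter on low counts. In the nucleus-range barcodes it was at 115 ± 19.1 and 234 ± 30.8 CPM without overlap (log2 1.04, adjusted p = 0.254), and it was called there by DESeq2, and by edgeR when at least 1000 UMIs were required. How strand was used in the counting is not given in the sources used here, so the assignment of UMIs in the overlap could not be checked.

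The other genes around *Olig2* were read in the same way. Within 5 Mb of its start, 53 other genes were tested, 1 was called higher and 0 lower, and the median log2 fold change was -0.031. *Olig1* and *Gm33255* were the 2 whose groups did not overlap, both higher, where 1.07% of all genes tested were. *Gm49688*, in the same window (88393426 to 88435102), was too low to be tested in this pool. In the nucleus-range barcodes it was at 0.951 ± 0.237 and 3.80 ± 0.876 CPM without overlap and was not called by edgeR (log2 2.00, adjusted p = 0.176). It was called higher there by DESeq2 (adjusted p = 7.68e-08) and by edgeR with at least 1000 UMIs (adjusted p = 0.0261). *Grik1*, a glutamate receptor subunit next to *Gm33255*, was at 120 and 185 CPM (log2 0.62, adjusted p = 0.593). The groups differ in the Cre allele at *Olig2*, in any DNA of that line linked to it and in the deletion of *Piezo2*. The replicate numbers also follow genotype, and the parts of all these in a difference cannot be told apart.

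By edgeR, none of the genes on the lists that mark the cells of the ON was called in the low-UMI pool, though with no filter on low counts 2 mural genes, *Acta2* and *Myh11*, were. *Mbp*, a main protein of myelin, was at 2735 ± 279 CPM in the control libraries and 2906 ± 360 CPM in those labelled cKO. *Apod* and *Trf*, a lipid and an iron carrier that OLs make in large amounts, were at 4338 ± 437 and 4842 ± 623 CPM and at 3544 ± 344 and 3581 ± 457 CPM. All 14 myelin and oligodendrocyte genes were tested and edgeR called 0 and DESeq2 1 (*Klk6*), with 13 fitted above 0 and a median log2 fold change of 0.13. *Klk6*, a protease of mature OLs, was at 447 to 483 CPM against 608 to 758 CPM with no overlap, and its log2 fold change of 0.56 passed the test of DESeq2 but not that of edgeR (adjusted p = 0.570). Genes of oligodendrocyte precursors gave a median of 0.082 over 4 genes, and *Cspg4* among them was at 21.7 ± 4.72 and 30.5 ± 2.28 CPM (adjusted p = 0.998). In bulk sums such as these, fewer cells of a type and less RNA per cell cannot be told apart.

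*Gfap*, the filament protein of astrocytes, was at 1273 ± 377 and 1229 ± 230 CPM, and the 6 astrocyte genes had a median log2 fold change of -0.098. Fibroblast genes had a median of -0.020 over 9 genes, with *Dcn*, a matrix proteoglycan, at 340 ± 37.4 and 283 ± 43.5 CPM. Myeloid genes, among them the complement gene *C1qa* at 255 ± 18.5 and 252 ± 25.7 CPM, had a median of -0.065 over 8 genes. Endothelial genes (3 tested, median 0.12), mural genes (4 tested, median -0.37) and neuron genes (5 tested, median -0.23) had no called member either. *Acta2*, the contractile actin of mural cells, gave the lowest value of these groups at log2 -1.22, with 28.6 ± 16.1 and 12.6 ± 3.26 CPM and overlapping groups (adjusted p = 0.903). *Tubb3*, a neuronal tubulin, was at 110 ± 20.6 and 126 ± 13.7 CPM, and *Rbpms*, an RNA-binding protein of retinal ganglion cells, at 31.5 ± 7.45 and 31.5 ± 7.04 CPM. *Pmp22*, a myelin protein of Schwann cells, was at 232 ± 20.8 and 262 ± 11.0 CPM with overlapping groups. *Jun*, an immediate early gene, was at 83.0 ± 19.6 and 82.5 ± 13.5 CPM. Cytosolic ribosomal protein genes had a median of 0.025 over 82 genes, mitochondrial mRNAs 0.10 over 13 and immediate early genes -0.028 over 8.

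Genes of neighbouring tissue were rare. In the low-UMI pool the control libraries and those labelled cKO held 1.13 to 30.6 and 8.93 to 32.5 CPM of photoreceptor genes, 3.40 to 14.5 and 5.92 to 13.8 of lens genes, and 13.5 to 28.6 and 8.93 to 15.6 of skeletal muscle genes. The groups overlapped, and no gene of these lists could be tested. Photoreceptor genes could be tested in barcodes with more UMIs, and there edgeR called 0 as well. In the intermediate barcodes all 7 tested were fitted above 0 (median log2 1.22), with sums of 2.60 to 26.1 CPM in the control libraries and 11.0 to 53.6 CPM in the others. In the nucleus-range barcodes all 6 tested were fitted above 0 (median log2 1.27), and DESeq2 called none (0) of them. It did call *Nrl*, a rod photoreceptor transcription factor outside the list and too low to be tested with edgeR. *Nrl* had 2, 2, 1 and 0 UMIs in control replicates 1 to 4 and 13, 31, 10 and 13 in cKO replicates 10 to 13 (log2 3.48, DESeq2 adjusted p = 0.0245). For 3 of the 6 the groups did not overlap, where 1.22% of all genes tested there were higher without overlap and 1.37% lower. The sums of 5.96 to 13.1 and 12.8 to 32.3 CPM overlapped in 1 control library. Over the 27 lists other than hemoglobin and hormones, 187 genes were tested and edgeR called 0, with 10 at an unadjusted p under 0.05 and 1 called by DESeq2 (*Klk6*). With no filter on low counts edgeR called 5 genes of these lists, *Avp*, *Oxt*, *Chgb*, *Acta2* and *Myh11*. That fit gave *Avp* an adjusted p of 2.35e-83 despite overlapping groups, so its calls are not taken as support. The groups did not overlap for 3 of the 187 (1.60%), *Klk6* and *Olig1* higher and *Alas2* lower, against 1.07% higher and 1.09% lower over all genes tested.

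The hemoglobin difference had the same direction in barcodes with more UMIs. In the intermediate barcodes 18123 genes were tested, 1 was called higher (0.00552%) and 3 lower (0.0166%). The higher gene was *Dqx1*, and the lower genes were *Abca8a*, *Hba-a1* and *Hba-a2*. *Dqx1*, of the helicase family, was at 1.46 ± 0.230 and 4.02 ± 0.532 CPM there (log2 1.46, SE 0.19, adjusted p = 0.0290) and had too few UMIs to be tested in the low-UMI pool. The hemoglobin list summed to 11496 to 19154 CPM in the control libraries and 4973 to 8246 CPM in those labelled cKO, a ratio of 2.82. *Hbb-bt* and *Hbb-bs* had fitted log2 fold changes of -1.56 and -1.48 but missed the threshold (adjusted p = 0.0606 and 0.0678). Without control replicate 3, whose hemoglobin sum was the lowest of its group, all 4 globin genes were called in these barcodes and *Dqx1* was not.

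*Abca8a*, of a family of lipid transporters, was called lower in the intermediate barcodes, and its groups did not overlap in any of the 3 pools. In the low-UMI pool it had 21, 21, 25 and 21 UMIs in control replicates 1 to 4 and 10, 6, 13 and 11 in cKO replicates 10 to 13. In CPM the means were 21.6 ± 2.13 and 9.48 ± 2.98 (log2 -1.18, SE 0.28, adjusted p = 0.405). In the intermediate barcodes the means were 22.0 ± 3.21 and 11.5 ± 0.259 CPM (log2 -0.92, SE 0.11, adjusted p = 0.0290). In the nucleus-range barcodes they were 26.7 ± 2.37 and 13.6 ± 1.21 CPM (log2 -0.96, SE 0.11, adjusted p = 0.119), and the gene was called lower there by DESeq2 (adjusted p = 5.16e-10) and by edgeR with at least 1000 UMIs (log2 -1.01, adjusted p = 0.0279). The gene was singled out after its values were seen.

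In the nucleus-range barcodes, 19513 genes were tested and edgeR called none higher (0%) or lower (0%), with 802 at an unadjusted p under 0.05 and 12 called by DESeq2. The hemoglobin list summed to 2451 to 6984 CPM in the control libraries and 1112 to 3241 CPM in the others, so the groups overlapped over the whole range, and the ratio was 2.43. When these barcodes were split by depth, the groups did not overlap in either part. In those with fewer than 1000 UMIs the list was at 12492 to 19037 and 4942 to 7790 CPM. In those with at least 1000 UMIs it was at 1717 to 3297 and 788 to 1650 CPM. Control replicate 4 and cKO replicate 13, whose nucleus-range barcodes were shallow, were the highest of their groups. Barcodes with at least 10% of their UMIs in hemoglobin genes numbered 15, 34, 39 and 63 in the control libraries and 5, 12, 8 and 20 in those labelled cKO. *Hba-a1* had a log2 fold change of -1.26 there (SE 0.43, adjusted p = 0.995), and *Gm33255* of 1.41 (SE 0.28, adjusted p = 0.995), with groups that did not overlap. DESeq2 called *Gm33255* higher there (adjusted p = 0.00346) and *Pomc* lower (log2 -4.16, adjusted p = 0.0155). *Gh* was at 762 CPM in control replicate 3, 10.9 to 61.9 in the other control libraries and 0.146 to 6.21 in those labelled cKO. *Prl* was at 1444 CPM, 15.7 to 151 and 0 to 18.4, so that its groups overlapped. Most hemoglobin UMIs of a library, 68.7% to 86.0%, lay in the intermediate barcodes, and 1.58% to 3.65% in the low-UMI pool. The 3 pools come from the same libraries, so their values are not independent.

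**Figure D5:**
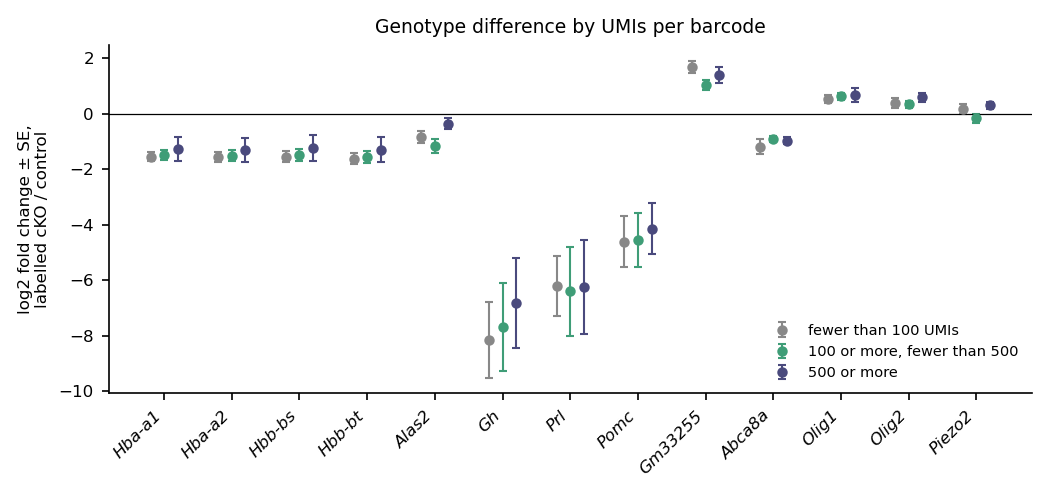
Points give the fitted log2 fold change (libraries labelled cKO over control) ± SE of 13 genes in barcodes with fewer than 100 UMIs, with 100 or more but fewer than 500, and with 500 or more. The globin genes lie between -1.61 and -1.24 in all 3 pools, and *Piezo2* lies on both sides of 0.

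Whether a genotype difference was particular to the low-UMI pool was tested with the interaction of pool and genotype, with the library as a term. Of 18366 genes, edgeR called none (0%), with 533 at an unadjusted p under 0.05, and limma on the log2 ratios called 2. These were *Siglece* and *Zfp473*, named after their values were seen. For *Hba-a1* the difference of the log2 fold changes, low-UMI minus nucleus-range, was -0.26 (SE 0.25), for *Hbb-bs* -0.28 (SE 0.23), for *Gh* -0.93 (SE 0.52) and for *Gm33255* 0.26 (SE 0.17), each with an adjusted p of 1.000. The 5 genes with the smallest p, *Ncln*, *Clcc1*, *Ube2cbp*, *Plpp2* and *Mb21d2*, had the same adjusted p, 1.000. *Clcc1*, an ion channel of the endoplasmic reticulum, was at 23.8 ± 3.56 and 42.2 ± 6.74 CPM in the low-UMI pool without overlap (adjusted p = 0.467 for the genotype). With at least 1000 UMIs required of the nucleus-range barcodes, edgeR again called 0 of 18026 genes for the interaction. By edgeR, no gene was thus shown to differ between the genotypes by another amount in the low-UMI pool than in the nucleus-range barcodes. A simulation covered the 11463 genes tested in the low-UMI pool and drew the pools of a library independently. In it this test called 78% of genes changed by log2 1.5 and 32% of those changed by log2 1. The other genes of the 18366 were not simulated, so these shares do not cover them. The lack of calls therefore does not show that the pools were alike.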

How the data were processed

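Nuclei from the frozen optic nerves were isolated by Dounce homogenisation and sucrose ultracentrifugation, and libraries were made with the 10x Next GEM 3′ v3.1 kit, per the methods of the study. The authors deposited unfiltered matrices of UMI counts per gene and barcode, made with Cell Ranger 7.0.0 on GRCm39. No ambient RNA was removed from these counts. There were 0 columns of other samples. The labels gave the genotype of each library, and no batch or date. Each library pools 3 mice, so p-values measure the spread between such pools. Deposited counts were summed per gene over barcodes with fewer than 100 UMIs (low-UMI pool), at least 100 and fewer than 500 (intermediate, added after the data were seen) and at least 500 (nucleus range). No doublet caller was run and no doublets were removed, since all barcodes of a UMI range were summed.

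Genes kept by filterByExpr were tested with TMM scaling and the quasi-likelihood test of edgeR 4.0.16 (R 4.3.3), with Benjamini-Hochberg adjustment over all genes tested. A call needed a log2 fold change beyond 0.5 in either direction and an adjusted p below 0.05. Each SE printed for an edgeR fit is the absolute log2 fold change divided by the square root of the F statistic. It is thus derived from the test. DESeq2 1.42.0 and limma 3.58.1 were alternatives. The interaction used the library, the pool and pool by genotype. CPM are counts per 1000000 UMIs of a pool without TMM, with 3 UMIs as the floor of a count of 0. The scripts were tested on simulated data. Coordinates come from the GRCm39 annotation, which matched 33185 of 33696 gene identifiers (98.5%). Promoter sequences come from RefSeq (GRCm38.p6), where *Gh* had no entry.

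The limits, the gene lists and the tests were chosen with earlier results of these data known. Genes named are the targeted and Cre-locus genes, detected hormone and hemoglobin genes, called genes without overlap (up to 15 each way), up to 4 of the most abundant members of each other list, tested genes at 4 or more times the next library (up to 5 per library) and the 5 leading interaction genes. Others named, such as *Klk6*, *Abca8a*, *4930420G21Rik*, *Grik1*, *Ccl19*, *Chgb*, *Slc4a1*, *Gm49688* and *Nrl*, were chosen after their values were seen. Alternatives changed the scaling, the filter, the tool, the UMI limits, the genes kept, a covariate or the libraries. Intervals and floors cover counting error only.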

Additional observations from a re-analysis of the deposited data

Results flagged for a closer look

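In 14 of 42 groups of 4 libraries, for the hormone, hemoglobin and share values, the highest or lowest library stood far from the other 3. The limit used would flag about 1 in 20 groups of independent, normally spread values. Several groups here rest on 1 UMI or none and several flag the same library, so that rate does not apply. Control replicate 3 stood apart for the pituitary hormone share of the low-UMI pool (0.593%, the others 0.0106% to 0.0426%). It also stood apart for *Gh* (2720 CPM), *Prl* (2440 CPM), *Pomc* (625 CPM) and *Cga* (115 CPM), where the other control libraries reached 120, 203, 88.0 and 5.80 CPM at most. Among the libraries labelled cKO, replicate 11 was far above the rest for *Gh* (7.79 CPM, 9 UMIs) and *Pomc* (13.0 CPM, 15 UMIs), and replicate 10 for *Tshb* (13.8 CPM, 14 UMIs). For *Hbb-bt*, cKO replicate 13 was at 429 CPM against 244 to 264 CPM in the other 3 libraries. The remaining values rest on 1 UMI or none: *Lhb* at 0.986 CPM in cKO replicate 10 and, under its second identifier, at 0.773 CPM in control replicate 3, *Hbq1a* at 0.773 CPM in control replicate 3 and 0.992 CPM in cKO replicate 13, and *Cga* at 0 CPM in cKO replicate 13.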

How the results depend on the processing

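No paired analysis was possible because the groups share no replicate number. The low-UMI pool gave 1 gene called higher and 6 lower. Without a filter on low counts there were 9 and 28, with the hormone level as a covariate 9 and 20, and with the hemoglobin level as a covariate 0 higher. DESeq2 called 4 higher, and 0 lower remained once mitochondrial, hemoglobin and hormone genes were left out. The 6 genes called lower in the main fit all belong to those lists, so they could not be called there. In barcodes with at least 100 and fewer than 500 UMIs, chosen after seeing the data, 3 were lower, and without control replicate 3 none (0) was higher. Leaving out 1 library gave 1 to 6 higher (6 without control replicate 2) and 4 to 8 lower. The hemoglobin covariate, built from the same genes, gave *Hbb-bt* at 0.10, *Hbb-bs* at 0.13, *Hba-a1* at -0.43, *Hba-a2* at -0.37 and *Olig2* at -0.16. No globin gene was then called. It also took *Gm33255* to 0.83, not called, and in the intermediate barcodes *Gm33255* was at 1.04, not called. The 4 genes called lower with the hemoglobin covariate were *Avp*, *Gh*, *Pomc* and *Prl*, at log2 -23.7 to -14.1. That covariate did not overlap between the groups, so its fit cannot separate it from genotype. The hormone covariate, built from the hormone genes, took *Gh* to -1.52 (edgeR adjusted p = 0.198) and *Prl* to -0.46 (adjusted p = 0.743), neither called. With it *Piezo2* was at -0.031, *Avp* at 2.05 and *Pomc* at 0.36. *Piezo2* was at -0.16 in the intermediate barcodes (-0.14 without control replicate 3). In nucleus-range barcodes DESeq2 called 8 higher and 4 lower, and a limit of 1000 UMIs gave 2 and 1. For the interaction limma called 2 lower. Apart from the genes left out, the cause of these changes was not tested. The low-UMI share differed by -0.171 percentage points, and by -0.343 to 0.0495 with 1 library left out (0.0495 without control replicate 3). The mitochondrial share differed by 0.110, by -0.144 to 0.279 with 1 library left out (-0.144 without cKO replicate 10, -0.0635 without control replicate 4), and by -0.230 in barcodes with 10 to 99 UMIs, where the hemoglobin share differed by -0.927 instead of -0.691. At 882575 to 1293855 UMIs a pool, genes of few UMIs could not be compared.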
